A study of Homo sapiens with 6 samples.

Results

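The G1 cyclins, the kinases they bind and the phosphatase CDC25A were examined in SaOS-2 cells before and after induction of p21. The group was defined by name, as 9 genes taken from the 23228 gene names of the deposited table: CCND1, CCND2, CCND3, CDK4, CDK6, CCNE1, CCNE2, CDK2 and CDC25A. All 9 have a row in the table. SaOS-2 is a human osteosarcoma line that the study describes as null for both RB and p53. All 6 libraries were made from such cells carrying a Tet-inducible p21 vector. Cells were left untreated (p21 OFF, 3 libraries) or received 1 μg/ml doxycycline for 24 h (p21 ON, 3 libraries). No library of cells that received the drug without the vector was analysed here, so doxycycline and p21 cannot be told apart in any value below. The study calls the replicates biological, but the sources do not say whether they came from separate cultures, so p-values measure the spread between these libraries, which may be technical. Means are given ± SD over 3 libraries.

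In the textbook scheme, mitogens raise the D-type cyclins (CCND1, CCND2, CCND3), which switch on CDK4 and CDK6. These kinases begin to phosphorylate RB and its relatives, which releases E2F factors and turns on the genes of the E-type cyclins (CCNE1, CCNE2). The E-type cyclins then activate CDK2, from which CDC25A removes inhibitory phosphates, and the cell enters S phase. The protein p21 (CDKN1A) binds cyclin-CDK2 complexes and inhibits them, and it also binds the cyclin D kinases. RNA levels do not measure these activities.

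The libraries held 12795490 to 21975045 reads on genes. CDKN1A, which the vector carries, had 1187 to 1355 normalized counts in the p21 OFF libraries and 40470 to 46739 in the p21 ON libraries. A normalized count is the number of reads on a gene divided by the size factor of its library. Of the osteoblast or osteosarcoma markers, RUNX2, SP7, ALPL and COL1A1 lay between 3028 and 38901 normalized counts, IBSP lay between 95.5 and 139, and the osteoblast gene SPP1 was at 0 to 2.96. IBSP was lower after induction, at 123 to 139 in p21 OFF and 95.5 to 102 in p21 ON libraries, and its part in the results below was not tested. Of the markers of other cell types, PTPRC, PECAM1 and ALB did not exceed 16.3, while EPCAM was at 292 to 374. RB1 transcript was present at 497 to 697 although the line is described as null for RB. Replicate 1 of p21 OFF stood apart from the other libraries of its group. The chi-square per gene between its reads and those of replicates 2 and 3 was 8.496 and 9.264, against 3.03 between replicates 2 and 3 and 2.71 to 3.98 among the p21 ON libraries, where 1 is the value from counting error alone.

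Of the 9 genes, 5 were higher in p21 ON cells, 1 was lower, 2 passed no threshold and 1 was listed at 0 in every library. CCNE2, CCND1 and CCNE1 rose most, CDK6 and CCND3 rose less, and CDC25A fell. CDK4 and CDK2 were not called in either direction, and CCND2 had no reads. Genes averaging 10 normalized counts or more, 13255 in all, entered a limma test on log2(normalized count + 1), so fold changes of weakly covered genes are understated. The p-values were adjusted over all of them by the Benjamini-Hochberg method, and calls were made under 0.05. In bulk RNA, fewer cells of a type and less RNA per cell cannot be told apart. In the same test 10.5% of all genes tested were called higher and 12.7% lower. For the 5 genes called higher, all p21 ON libraries lay above all p21 OFF libraries, as they did for 19.1% of all genes tested. For CDC25A they lay below, as for 21.3% of all genes tested. Without replicate 1 of p21 OFF the same 5 genes were called higher and CDC25A lower, with log2 fold changes of 0.76 for CCND1, 0.25 for CCND3, 0.39 for CDK6, 0.77 for CCNE1, 0.90 for CCNE2 and -0.41 for CDC25A. The median log2 fold change of the 8 genes tested, all libraries included, was 0.31, and that of all genes tested was 0.0056.

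**Figure D1:**
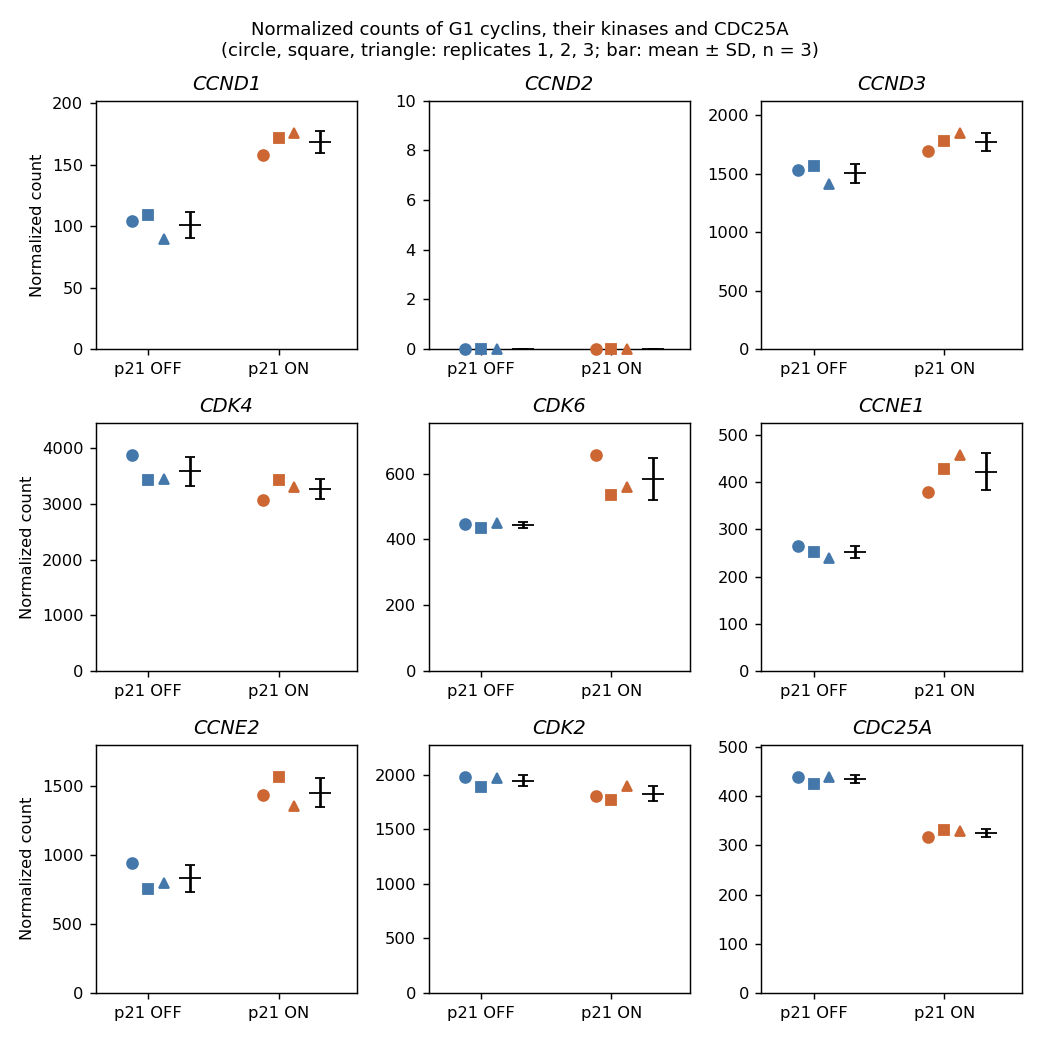
Normalized counts (vertical axes, each starting at 0) of the 9 genes in the 3 p21 OFF and 3 p21 ON libraries. Points are libraries and bars are the mean ± SD (n = 3). The groups do not overlap for CCND1, CCND3, CDK6, CCNE1, CCNE2 and CDC25A, meet or overlap for CDK4 and CDK2, and are at 0 throughout for CCND2.

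Among the D-type cyclins, CCND1 (ENSG00000110092.4, chromosome 11 of GRCh37, 69455924 to 69469242, plus strand) had 104, 109 and 89.4 normalized counts with p21 OFF and 158, 172 and 176 with p21 ON. Every p21 ON library was above every p21 OFF library. Cyclin D1 is the D-type cyclin most often amplified in tumors, but here its transcript was weakly covered, with 83 to 185 reads in a library. The mean went from 101 ± 10.3 to 169 ± 9.15 normalized counts (n = 3 each), 1.67 times the p21 OFF level. The log2 fold change was 0.74 (SE 0.12 and limma adjusted p = 0.000246). Of the CCND1 exons, 10.4% overlap those of ORAOV1 (now LTO1) on the opposite strand. Whether the authors counted reads by strand is not given in the sources used here. Reads of such pairs may therefore be mixed or left uncounted, and the levels per kb below were not corrected for this. ORAOV1 had a log2 fold change of -0.08 (limma adjusted p = 0.664).

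CCND3 (ENSG00000112576.13, chromosome 6, 41902672 to 42018095, minus strand) carried most of the D-type cyclin reads. Its normalized counts were 1526, 1567 and 1409 with p21 OFF and 1689, 1774 and 1844 with p21 ON. The groups were separate, although the gap between them was smaller than the range within either group. The rise from 1501 ± 82.1 to 1769 ± 77.7 normalized counts (n = 3 each) gave a log2 fold change of 0.24 (SE 0.06 and limma adjusted p = 0.0135). This call rested on single libraries. Without p21 OFF replicate 3 the log2 fold change was 0.19 and without p21 ON replicate 3 it was 0.21, at limma adjusted p = 0.062 and 0.0722.

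CCND2 (ENSG00000118971.9, chromosome 12, 4378937 to 4414519, plus strand) is the third D-type cyclin, and it had 0 reads in all 6 libraries. A count of 0 allows up to 3 reads in a library, which corresponds to 2.22 to 3.77 normalized counts, counting error only. CCND2 was 1 of 5018 gene names (21.6% of the table) listed at 0 throughout. It was therefore not tested, and no fold change was computed.

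For the kinases of the D-type cyclins, CDK6 and CDK4, the calls differed. CDK6 (ENSG00000105810.10, chromosome 7, 92234235 to 92465887, minus strand) had 448, 434 and 451 normalized counts in p21 OFF and 657, 534 and 561 in p21 ON libraries. The p21 OFF libraries were close together and all below the p21 ON libraries, of which replicate 1 was the highest. The log2 fold change was 0.39 (SE 0.08 and limma adjusted p = 0.00325), from 444 ± 9.37 to 584 ± 64.6 normalized counts (n = 3 each), and without p21 ON replicate 1 it was 0.30 (limma adjusted p = 0.0367).

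CDK4 (ENSG00000135446.17, chromosome 12, 58141510 to 58149796, minus strand) had 3874, 3424 and 3447 normalized counts in p21 OFF and 3063, 3424 and 3305 in p21 ON libraries. The lowest p21 OFF and the highest p21 ON library stood at the same level, and the highest p21 OFF library was replicate 1. The means of 3582 ± 254 and 3264 ± 184 (n = 3 each) gave a log2 fold change of -0.13, with a 95% interval from -0.27 to 0.0046 (limma adjusted p = 0.15). Without p21 OFF replicate 1 the log2 fold change was -0.08 and without p21 ON replicate 1 it was -0.09, at limma adjusted p = 0.352 and 0.481. A fall of up to the lower bound is inside the interval from all libraries, and a rise like that of CDK6 is outside it. Whether the changes of CDK4 and CDK6 differ was not tested. The exons of CDK4 overlap those of TSPAN31 on the opposite strand over 44.2% of their length, and TSPAN31 had 153 to 197 normalized counts with a log2 fold change of 0.06 (limma adjusted p = 0.75).

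The E-type cyclins rose together. CCNE1 (ENSG00000105173.14, chromosome 19, 30302898 to 30315219, plus strand) had 265, 252 and 240.2 normalized counts in p21 OFF and 379.5, 428 and 457 in p21 ON libraries. No library of the p21 ON group came near the p21 OFF range. The mean of 421 ± 39.2 normalized counts was 1.67 times the p21 OFF mean of 253 ± 12.4 (n = 3 each), with a log2 fold change of 0.73 (SE 0.09 and limma adjusted p = 1.35e-05).

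CCNE2 (ENSG00000175305.18, chromosome 8, 95891998 to 95908906, minus strand), the other E-type cyclin, had 944, 758 and 795 normalized counts in p21 OFF and 1440.05, 1568 and 1356 in p21 ON libraries. The lowest p21 ON library was well above the highest p21 OFF library, which was replicate 1. The p21 ON mean was 1.75 times the p21 OFF mean, and the log2 fold change of 0.81 had a 95% interval from 0.64 to 0.98. Exons of INTS8, a gene of the Integrator complex on the opposite strand, overlap 37.05% of the CCNE2 exons, and INTS8 had 1024 to 1117 normalized counts in p21 OFF and 1029 to 1082 in p21 ON libraries, a log2 fold change of -0.02 (limma adjusted p = 0.886).

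CDK2 (ENSG00000123374.11, chromosome 12, 56360565 to 56366573, plus strand), the kinase of the E-type cyclins, had 1979, 1885 and 1971 normalized counts in p21 OFF and 1806, 1770.4 and 1899.5 in p21 ON libraries. The ranges overlapped, with p21 ON replicate 3 above p21 OFF replicate 2. The log2 fold change was -0.09, with a 95% interval from -0.22 to 0.03 (limma adjusted p = 0.282), so a rise of the size seen for CCNE1 or CCNE2 is outside the interval. Without p21 OFF replicate 1 it was -0.08. On the opposite strand, the lncRNA ENSG00000258554 overlaps 14.54% of the CDK2 exons and was not analysed here, and PMEL overlaps 2.29% and had 2.44 to 6.98 normalized counts.

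CDC25A (ENSG00000164045.12, chromosome 3, 48198636 to 48229907, minus strand), the phosphatase that activates CDK2, was the member that fell. It had 438, 425 and 439 normalized counts in p21 OFF and 317, 331 and 329.7 in p21 ON libraries. Libraries of a group were close together, and the groups were far apart. The mean fell from 434 ± 7.94 to 326 ± 8.09 normalized counts (n = 3 each), a log2 fold change of -0.41 (SE 0.08 and limma adjusted p = 0.00117). CCNE1, CCNE2 and CDC25A are all on the high-stringency G1/S list of the study, and CCND3 and CDK2 are on its low-stringency G1/S list. Among these 5 genes 3 were called higher, 1 lower and 1 neither, beside 10.5% higher and 12.7% lower among all genes tested. The 3 include CCND3, whose call rested on single libraries. Shares over the study's G1/S lists were not computed. CDK4 is on the low-stringency G2/M list, and CCND1, CCND2 and CDK6 are on none of the study's lists.

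**Figure D2:**
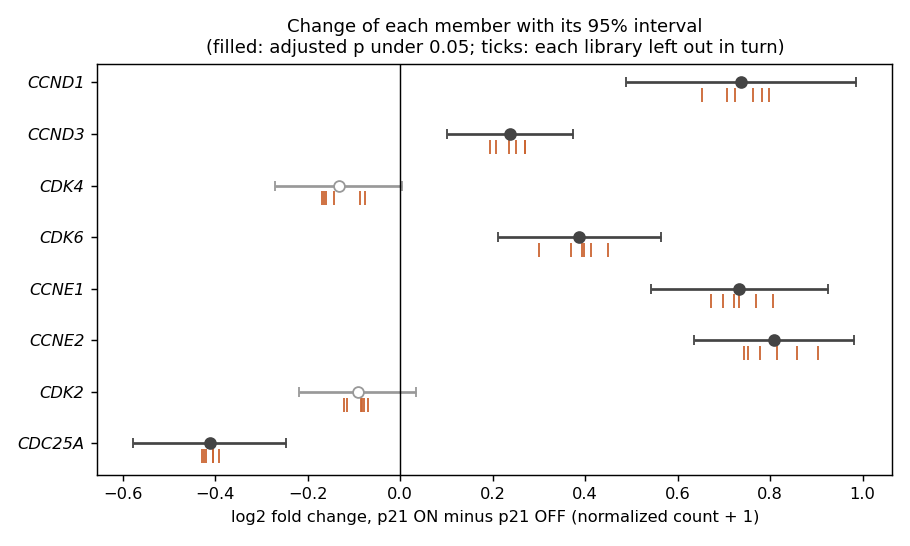
Log2 fold change (horizontal axis, p21 ON minus p21 OFF on log2(normalized count + 1)) of the 8 genes tested, with 95% intervals from limma. Filled points had an adjusted p-value under 0.05, and ticks under each point are the fits with 1 library left out, which stayed between 0.65 and 0.80 for CCND1 and between -0.43 and -0.39 for CDC25A.

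With 3 libraries against 3, an exact two-sided permutation test gives at least p = 0.1. The exact permutation test gave p = 0.1 for each of the 6 genes called and p = 0.2 for CDK4 and CDK2. Scaling by library size alone moved the median log2 fold change of all genes tested to 0.05, and under it the 5 genes were still called higher and CDC25A lower, with CDK4 at -0.09 and CDK2 at -0.05. The quasi-likelihood test of edgeR and DESeq2 on the recovered reads also called the same 5 genes higher and CDC25A lower, out of the 9. Without the filter on low values, CCND3 and CDK6 lost their calls (limma adjusted p = 0.117 and 0.108).

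RefSeq promoter windows on GRCh38.p14 were matched for 5 of the 9 genes: CCND3, CDK4, CDK6, CCNE1 and CDC25A, in 8 windows because CCND3 and CDK6 have several starts. No window was matched for CCND1, CCND2, CCNE2 and CDK2. The 250 bases before the start were searched on both strands for E2F elements (TTTCCCGC, TTTCGCGC, TTTGCCGC or TTTGGCGC), for CHR elements (TTTGAA or TTTAAA or TTCGAA or TTCAAA), which G2/M promoters use, and for the E-box CACGTG, which MYC binds. Of all 35116 windows of this length, 2.79% held an E2F match, 22.8% a CHR match and 6.34% an E-box match. The windows of CCNE1 and CDC25A are shown because these G1/S genes moved in opposite directions, and that of CDK4 because its 3 matches were the most in any of the 8 windows. Capitals mark the matches, and all are written 5′ to 3′ on the strand of the gene.
CCNE1, chr19:29811741-29811990, plus strand: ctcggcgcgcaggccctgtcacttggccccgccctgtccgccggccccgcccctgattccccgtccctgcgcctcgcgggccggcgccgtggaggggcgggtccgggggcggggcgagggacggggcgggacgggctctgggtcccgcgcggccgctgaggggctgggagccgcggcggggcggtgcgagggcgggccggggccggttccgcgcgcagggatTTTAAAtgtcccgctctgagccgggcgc
CDC25A, chr3:48188418-48188667, minus strand: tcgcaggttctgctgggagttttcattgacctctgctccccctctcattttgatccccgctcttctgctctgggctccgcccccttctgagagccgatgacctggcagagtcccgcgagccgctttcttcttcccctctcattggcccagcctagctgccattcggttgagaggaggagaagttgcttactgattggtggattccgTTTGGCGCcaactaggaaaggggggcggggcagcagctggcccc
CDK4, chr12:57752311-57752560, minus strand: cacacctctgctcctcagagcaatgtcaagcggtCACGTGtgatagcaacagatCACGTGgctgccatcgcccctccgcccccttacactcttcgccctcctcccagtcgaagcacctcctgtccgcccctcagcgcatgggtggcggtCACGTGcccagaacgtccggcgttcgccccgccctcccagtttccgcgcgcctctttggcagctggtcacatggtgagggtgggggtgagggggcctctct

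The CDC25A window held TTTGGCGC at -44 to -37 from the start, and the CCNE1 window held TTTAAA at -28 to -23 and none of the 4 E2F sequences. The CDK4 window held CACGTG at -216, -196 and -101 (first base of each). None of the sequences occurred in the windows of CCND3 and CDK6. A match is a description of the letters, and no match says nothing about whether a factor binds.

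Levels of different genes were compared as normalized counts per kb of merged exons (GENCODE release 44 lifted to GRCh37). In p21 OFF cells the order was CDK4 (1158 ± 82), CDK2 (500.4 ± 13.4), CCND3 (260.5 ± 14.2), CCNE2 (189 ± 22.5), CDC25A (105 ± 1.92), CCNE1 (103 ± 5.03), CDK6 (36.3 ± 0.77), CCND1 (21.2 ± 2.17) and CCND2 at 0 (n = 3 each). CDC25A and CCNE1 did not differ beyond their spread, and the other neighbours did not overlap. In p21 ON cells CDK4 (1055 ± 59.5) and CDK2 (469.6 ± 17.2) still led. CCNE1 stood at 171 ± 15.9 per kb and CDC25A at 78.6 ± 1.95, and their libraries no longer overlapped. CCNE2 at 331 ± 24.3 overlapped CCND3 at 307 ± 13.5. CDK6 rose to 47.7 ± 5.28 and CCND1 to 35.4 ± 1.92 per kb, so both remained under CDC25A. The order of close neighbours depends on the length used. With the canonical transcript in place of the merged exons, CCND3 was at 741 ± 40.5 in p21 OFF and 873 ± 38.4 in p21 ON cells, above CCNE2 at 311 ± 36.9 and 544 ± 40.0, and CCNE1 at 129 ± 6.34 was above CDC25A at 113 ± 2.07 in p21 OFF cells.

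The summed D-type cyclin level was 287, 295 and 263 normalized counts per kb with p21 OFF and 326, 344 and 357 with p21 ON. The summed E-type level was 322, 275 and 278 per kb in p21 OFF and 482, 530.4 and 494 in p21 ON libraries. The D-type sum was thus 1.22 times and the E-type sum 1.72 times as high after induction, and each sum was separate between the groups. The log2 difference of the E-type from the D-type sum was 0.05 ± 0.14 in p21 OFF and 0.55 ± 0.08 in p21 ON libraries (n = 3 each), a shift of 0.50 toward the E-type cyclins. Without replicate 1 of p21 OFF the difference was -0.01 in p21 OFF libraries and the shift 0.56. This shift was 0.53 with canonical transcript lengths, while the sign of the difference itself turned, to -0.80 in p21 OFF and -0.27 in p21 ON cells. No p-value is given for these sums, which combine genes chosen as a group.

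**Figure D3:**
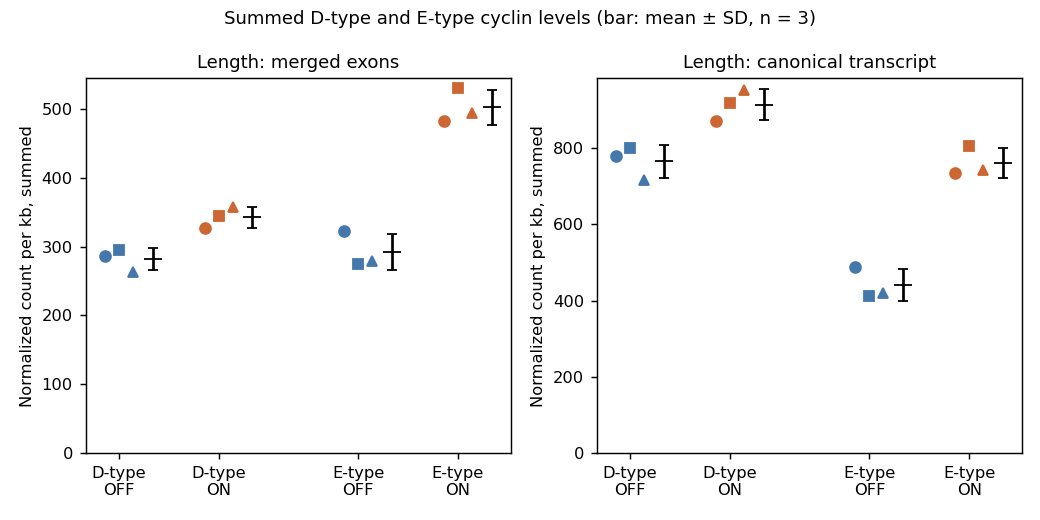
Summed normalized counts per kb (vertical axes, from 0) of the D-type and E-type cyclins in each library, with the length of merged exons on the left and of canonical transcripts on the right. Points are libraries and bars the mean ± SD (n = 3); under both lengths the E-type sum rose more (1.72 times) than the D-type sum (1.22 or 1.19 times), while which of them was higher depended on the length.

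Within each class the composition differed in how far it moved. CCND1 made up 7.64, 7.79 and 7.13% of the summed D-type level in p21 OFF and 10.2, 10.5 and 10.3% in p21 ON libraries, so its share was higher in every p21 ON library, and CCND3 supplied the rest. With canonical transcript lengths the mean share of CCND1 was 3.11% and 4.36%. CCNE2 made up 62.7 to 66.6% of the E-type level in p21 OFF and 62.4 to 68.0% in p21 ON libraries, and these ranges overlapped. CDK6 made up 2.84 to 3.20% of the summed CDK4 and CDK6 level in p21 OFF and 3.79 to 5.14% in p21 ON libraries. CDK4 therefore remained the main transcript of this kinase pair in every library.

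The other genes of G1 control were taken from a list of 34 genes, most of which act on or with the cyclins and kinases above. Not all belong to G1. CDC25C acts on CDK1, and CCNA2, CKS1B, CKS2, CDC25B and CDC25C, all called lower, are on the study's high-stringency G2/M list. Of these, 32 were tested, and 1 was higher, 14 were lower and 17 were neither in p21 ON cells, beside the 10.5% and 12.7% called among all genes tested. The median log2 fold change of the list was -0.16. CCNA1 and CDKN1C were too low to be tested, at up to 2.51 and 13.3 normalized counts.

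All 3 tested partners of CDK2 besides the E-type cyclins fell, where 12.7% of all genes tested were called lower. CCNA2, the cyclin that follows the E-type cyclins on CDK2 in S phase, had 1599, 1474 and 1442 normalized counts in p21 OFF and 561, 575 and 491 in p21 ON libraries, a log2 fold change of -1.47 (limma adjusted p = 8.38e-11). The small CDK-binding proteins CKS1B and CKS2 had log2 fold changes of -1.34 and -1.32. All 3 are on the study's high-stringency G2/M list, as are CDC25B and CDC25C. Of the cyclins of CDK2, the E-type pair thus rose and cyclin A2 fell, while CDK2 itself was not called.

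The other CDC25 phosphatases and the kinases that oppose them fell as well, 4 of 4, beside the same 12.7% of all genes tested. CDC25C, which acts on CDK1 at entry into mitosis, had 433, 380.4 and 399 normalized counts in p21 OFF and 151, 138 and 124 in p21 ON libraries, a log2 fold change of -1.55 (limma adjusted p = 1.74e-09). CDC25B had a log2 fold change of -0.85. The inhibitory kinases PKMYT1 and WEE1 had log2 fold changes of -1.37 and -0.31. The call of WEE1 was lost without the filter on low values (limma adjusted p = 0.122). All 3 CDC25 genes were thus lower in p21 ON cells, with CDC25A at -0.41 the least changed of them by its log2 fold change, and the differences between them were not tested.

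Of the CDK inhibitors besides CDKN1A, 4 of the 5 tested were called lower and none higher, where 12.7% of all genes tested were called lower. CDKN1B, the gene of p27, had a log2 fold change of -0.25 (limma adjusted p = 0.00814). The INK4 inhibitors, which bind CDK4 and CDK6, included CDKN2D with a log2 fold change of -0.67 and CDKN2C with -0.50 (limma adjusted p = 0.000132 and 5.42e-06). CDKN2C went from 4984 ± 54.4 to 3519 ± 172 normalized counts (n = 3 each). CDKN2A, the gene of p16, lay between 5423 and 7216 normalized counts, and its log2 fold change was -0.26 (limma adjusted p = 0.0114). Without p21 ON replicate 1 or 2 it was -0.23 or -0.22 and no longer called, at limma adjusted p = 0.083 and 0.0599. Nor was CDKN2A called without the filter on low values (limma adjusted p = 0.203).

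None of the 7 genes for the degradation of G1 cyclins and CDC25A passed the threshold, nor did the 3 subunits of the CDK-activating kinase (CDK7, CCNH and MNAT1). Of all genes tested, 10.5% were called higher and 12.7% lower, so most genes passed no threshold either. Sets this small with no call are therefore not a trait of these genes. Of the chaperones that fold CDK4 and other kinases, HSP90AA1 and HSP90AB1 were called lower, at -0.29 and -0.31, and CDC37, at -0.08, was not. Without the filter on low values HSP90AA1 and HSP90AB1 were not called either (limma adjusted p = 0.13 and 0.0923). FBXW7, which marks the E-type cyclins for degradation, had 332 ± 16.1 normalized counts in p21 OFF and 339 ± 16.0 in p21 ON cells (n = 3 each), a log2 fold change of 0.03 (limma adjusted p = 0.837). SKP2 had a log2 fold change of 0.12 and AMBRA1, which directs D-type cyclins to degradation, of 0.11 (limma adjusted p = 0.192 and 0.328).

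Among the targets and partners, E2F1 was called higher and RBL2, the gene of p130, lower. RBL2 had a log2 fold change of -0.33, and its call was lost without the filter on low values (limma adjusted p = 0.0509). RB1 transcript was at 497, 628 and 539 normalized counts in p21 OFF and 697, 645 and 619.6 in p21 ON libraries, which overlapped, and its log2 fold change was 0.24 (limma adjusted p = 0.0516). Scaling by library size alone made it 0.29 (limma adjusted p = 0.0217), and leaving out p21 OFF replicate 2 made it 0.33 (limma adjusted p = 0.0143). The call of E2F1, at a log2 fold change of 0.22, was lost when replicate 2 of p21 OFF or replicate 3 of p21 ON was left out, and without the filter on low values. E2F2, E2F3 and NPAT had log2 fold changes of 0.0014 to 0.07 and were not called.

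**Figure D4:**
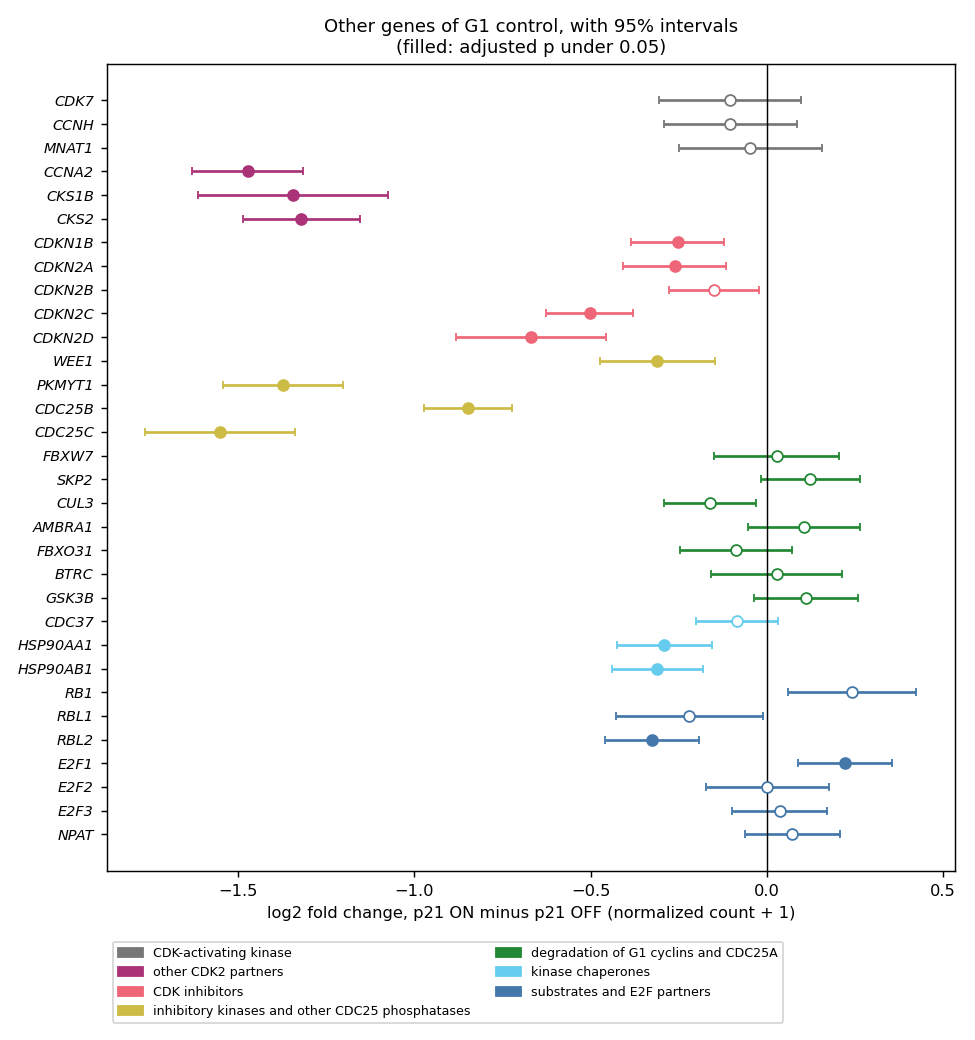
Log2 fold change (horizontal axis, p21 ON minus p21 OFF on log2(normalized count + 1)) of the 32 tested genes of the G1 control list, with 95% intervals from limma and colors by role. Filled points had an adjusted p-value under 0.05, which holds for 1 gene called higher (E2F1) and 14 called lower. The 14 are CCNA2, CKS1B, CKS2, all 4 CDC25 phosphatases and inhibitory kinases, 4 CDK inhibitors, HSP90AA1, HSP90AB1 and RBL2. Open points are the 17 genes not called, the 7 degradation genes among them. Of all genes tested, 10.5% were called higher and 12.7% lower.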

How the data were processed

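Polyadenylated RNA of 6 SaOS-2 samples was sequenced with a stranded kit and single-end reads. Per the paper's methods, the authors aligned the reads with STAR (genome hg19), used HTSeq to count them by gene name and divided the counts by DESeq2 size factors, so the deposited values are a normalized signal per gene and library, not raw counts. Versions, the annotation and the strand setting are not given in the sources used here. In every library 100% of values were whole multiples of a single step (to within 0.01% of the value), so whole reads were recovered, 12795490 to 21975045 per library. Intervals and floors cover counting error or library spread only.

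The 9 genes, the G1 control list and the tests were chosen with earlier results of these data known. The comparison used limma 3.58.1 in R 4.3.3 with a mean-variance trend and no covariate on log2(normalized count + 1), for 13255 genes averaging 10 or more, and Benjamini-Hochberg adjustment. Alternatives were pseudocounts of 0.1 and 10, other filters, library size and TMM scaling, edgeR 4.0.16 and DESeq2 1.42.0 on recovered reads, a replicate block, and leaving out single libraries. A filter of at least 1 read in any library and canonical transcript lengths were added after seeing the data. Simulated counts for this comparison had 200 genes changed by 1 on the log2 scale. Limma called 97% of them and 8 unchanged genes among 13200 tested. This change was larger than that of any of the 9 genes, at most 0.81 (CCNE2). Far fewer genes were changed than the 1393 called higher and 1681 called lower in the data. The 97% is therefore not a rate for changes of the size reported here. Positions, lengths and overlaps come from GENCODE 44 mapped to GRCh37 (hg19), and promoter sequences from RefSeq on GRCh38.p14. Named were all 9 genes, CDKN1A, RB1, genes whose exons overlap a member's, and up to 8 genes a direction with the largest called changes in the list. CDKN1B, CDKN2A, WEE1, RBL2, HSP90AA1, HSP90AB1, the genes of the list that were not called and the markers were named in addition, after their values were seen. Some genes of this rule and of the marker list are not reported here.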

Additional observations from a re-analysis of the deposited data

How the results depend on the processing

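The numbers of the replicates gave no sign of pairing the libraries. Deviations of same-numbered p21 OFF and p21 ON libraries from their group means correlated at -0.057, -0.025 and -0.048. For libraries of different number the correlations were -0.005 to 0.054. With the replicate block, 5 of the 9 genes were called higher and 1 lower, and CCND3 had an adjusted p = 0.0251 from limma, so no call among them changed. Without any filter on low values, where 23228 gene names including those at 0 throughout entered the fit, 3 genes were called higher. CCND3 (0.24) and CDK6 (0.39) lost their calls, and of the G1 control list 0 were called higher and 9 lower, as E2F1, CDKN2A, HSP90AA1, HSP90AB1, RBL2 and WEE1 lost their calls. Shares of all genes called were computed for the reported fit only. Counts from this and the other alternative fits therefore cannot be set against a share of their own. The cause of these losses was not tested, and the total degrees of freedom of limma were 4.584 there and 17.75 in the reported fit. With at least 1 read in any library, a filter chosen after seeing the data, no call in either list changed. Library size scaling gave 2 genes of the list higher. With single libraries left out, 4 to 5 of the 9 genes were called higher, CCND3 ranged from 0.19 to 0.27, and 0 to 1 of the list were higher.

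With the longest annotated transcript as the length, the summed D-type level was 651 per kb in p21 OFF and 779 in p21 ON cells, the E-type level 379 and 653, and the log2 difference of E-type from D-type -0.78 and -0.26. With canonical transcripts these were 764 and 913, 441 and 759.7, and -0.80 and -0.27. The merged exons of CCND3 are 5761 bases and its canonical transcript 2026, the largest such gap by ratio among the 5 cyclins. With single libraries left out, the log2 difference lay between -0.01 and 0.13 in p21 OFF and between 0.51 and 0.59 in p21 ON cells. Over all alternatives, 216 comparisons were labelled the same, 8 weaker, 1 stronger, 8 moved and 4 reversed. The same meant keeping direction and side of the threshold, or moving by less than the replicate spread. For counts of genes it meant staying within 1.5 times the reported count. For the sums, log2 differences and shift, leaving out a library from groups this small cannot exceed that spread. Library size scaling cannot change the log2 differences or the shift at all. Those labels therefore do not measure stability, and the change of sign to -0.01 without p21 OFF replicate 1 is among the 216. CCND1 had the fewest reads of the 8 genes tested, 83 to 185 in a library.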
